A study of Drosophila melanogaster with 2 samples.

Results

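The genes described here are 53 protein-coding genes of the ZAD zinc finger family that lie outside the gene cluster of Nnk (CG17802), out of 13945 protein-coding genes on the main chromosome arms of Drosophila melanogaster. They came from a list of 60 symbols, of which 53 were found by symbol in the gene annotation. A further 6 were annotated under another name (nom, Zaf1, D19A, D19B, ouib and Paris) and were kept apart from the counts, and CG4413 proved to be a second name of trem. The question was at which of these genes the GFP-tagged protein Nnk, itself a ZAD protein, gave a ChIP-seq peak at the promoter.

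There was 1 group of 2 biological replicates, both from whole embryos of both sexes collected at 0 to 14 h from 1 transgenic line with GFP fused to the C terminus of CG17802. The antibody field names CG17802, whereas another label field calls the same libraries an input control, and the control is listed as an experiment of its own. A whole embryo mixes all tissues and stages of that window, so a peak cannot be placed in a cell type. No second condition was measured, the depth of the libraries is unknown, and nothing below is a test between conditions.

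ZAD proteins carry a zinc finger-associated domain near the N terminus, which holds a zinc ion through cysteines arranged as a pair of CxxC motifs and lets the proteins dimerise. Behind it most members have an array of C2H2 zinc fingers that can read DNA. The family expanded in insects, its genes often sit beside each other, and members with known functions act as insulator proteins, promoter factors, and regulators of oogenesis, meiosis and moulting hormone synthesis.

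The protein sequences bore out the label for most of the list. Translated from the annotated coding sequences, 42 of the 53 ZAD genes (79.2%) encoded the paired CxxC arrangement in the first 110 residues, against 1.74% of all protein-coding genes and 35.3% of those with 3 or more C2H2 fingers. The remaining 11 genes were mld, hang, CG14655, CG7963, CG6689, CG12391, CG17385, CG8944, CG9215, CG18262 and CG10431, in which this simple pattern was not found. The proteins had a median of 6 fingers (range 0 to 16) and a median length of 501 residues (198 to 2223). CG31457 and CG31109 had the N-terminal pattern but no finger by the pattern used, while hang had 16.

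The authors' optimal peak list holds 3535 peaks thresholded for reproducibility (IDR). A gene was called bound when a summit of that list lay within 500 bp of one of its transcription start sites (TSSs). By this rule 15 of the 53 ZAD genes were bound, which is 28.3% (Wilson 95% interval 18.0 to 41.6%, counting error only), beside 16.9% of all protein-coding genes. In order of peak signal they were CG10147, wek, Sry-delta, CG4820, CG18476, CG7963, CG14710, CG14711, trem, CG10274, M1BP, CG6254, CG17328, CG10366 and CG11695. The other 38 had no thresholded summit within that distance. Within 200 bp 11 ZAD genes were bound (20.8%), beside 12.3% of protein-coding genes, with the 1767 strongest peaks 7 (13.2%), beside 9.67%, and with the 500 strongest 2 (3.77%), beside 3.27%, which is close to the background. Whether the ZAD share differed from that of other genes was not tested, because genes are not replicates and the list was chosen with results of these data known.

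Sequences at 6 of the bound promoters are shown, 5 because their peaks are the strongest and CG14711 for its CGATA copies. Each is read 5′ to 3′ on the strand of the ZAD gene from RefSeq's dm6 assembly (Release 6). Each is the stretch without annotated exons that holds the summit or lies nearest to it, within 100 bases of it. At wek the summit itself falls in the 5′ UTR and is not shown, nor is the CAGCTG 26 bases from it. Capitals mark the DNA replication-related element TATCGATA, CGATA where it occurs at least 2 times, or the TATA letters TATAAA, on either strand.
wek, chr2L:15768350-15768448, minus strand: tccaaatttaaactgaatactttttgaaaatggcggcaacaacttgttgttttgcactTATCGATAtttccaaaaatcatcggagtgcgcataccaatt
CG4820, chr3R:11216288-11216435, plus strand: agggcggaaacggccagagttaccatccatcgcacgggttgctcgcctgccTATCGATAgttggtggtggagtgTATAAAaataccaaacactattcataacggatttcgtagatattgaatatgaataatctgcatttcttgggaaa
CG14711, chr3R:11623234-11623338, plus strand: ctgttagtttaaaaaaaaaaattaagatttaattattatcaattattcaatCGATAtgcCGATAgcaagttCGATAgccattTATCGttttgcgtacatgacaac
CG18476, chr3R:11678176-11678376, minus strand: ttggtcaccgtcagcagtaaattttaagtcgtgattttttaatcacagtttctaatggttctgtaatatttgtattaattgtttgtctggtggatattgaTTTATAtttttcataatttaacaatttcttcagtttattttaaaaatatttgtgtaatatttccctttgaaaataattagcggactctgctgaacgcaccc
CG10147, chr3L:6488529-6488680, minus strand: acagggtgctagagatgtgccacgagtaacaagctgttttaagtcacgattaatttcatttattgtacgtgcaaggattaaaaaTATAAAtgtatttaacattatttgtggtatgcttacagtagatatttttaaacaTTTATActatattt
Sry-delta, chr3R:30043217-30043340, plus strand: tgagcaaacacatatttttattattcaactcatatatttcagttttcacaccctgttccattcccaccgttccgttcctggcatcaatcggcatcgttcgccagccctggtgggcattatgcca
The wek and CG4820 stretches each hold 1 TATCGATA, centred 39 and 8 bases from the summit. The CG14711 stretch holds 4 copies of CGATA on the 2 strands and no TATCGATA. The CG10147 stretch has TATAAA as its only searched word, as does the CG18476 stretch, where it lies 2 bases from the summit. The Sry-delta stretch holds none of the searched words.

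The 15 bound ZAD genes had peak signals between 112.7 and 501.6 with a median of 174.7, in the authors' units, whose scale is not stated. All 2352 bound protein-coding genes had a median of 212.6 and ran from 109.9 to 22497. The strongest ZAD peak ranked 454th of the 3535 by signal, and 425 bound protein-coding genes (18.1%) had a higher signal than any ZAD gene. Their ranks ran from there to 3405th, with 6 genes from CG10147 to CG7963 ranked between 454th and 970th. All 53 ZAD genes lay outside chromosome 4 and the centromere-proximal segments. With those regions left out, the median of all bound protein-coding genes was 200.7.

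Among the ZAD genes with known functions, wek (chr2L:15766133-15768349, minus strand) had the strongest peak of its own. It encodes an adaptor of the Toll pathway that acts in dorsoventral patterning. Its signal was 483.3, with the summit 1 bp inside the 5′ UTR, and no other gene had a TSS within 500 bp of that summit. The peak ranked 408th in replicate 1 and 534th in replicate 2, so it stood among the stronger peaks of both.

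Sry-delta (chr3R:30043341-30044886, plus strand), a transcriptional activator of bicoid in the ovary, had a signal of 391.4 with the summit 24 bp upstream of its TSS. This peak too had no other TSS within 500 bp, and it ranked 574th in replicate 1 and 666th in replicate 2. Its neighbour and paralog Sry-beta was not bound. Sry-beta had a pooled-list peak of signal 44.3, rank 16191 of 30000, 22 bp from its TSS and at an equal distance from that of Sry-alpha, and it overlapped a peak in replicate 2 only. The 2 adjacent paralogs thus lay on different sides of the threshold.

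The gene trem (chr3R:20029560-20031309, minus strand), needed to start meiotic recombination, had 2 thresholded summits within 500 bp. The stronger had a signal of 163.9 and lay 252 bp upstream of trem and 262 bp from idc, another ZAD gene that points away on the opposite strand. The weaker, at 148.8, lay 460 bp from trem and 54 bp from idc. The intervals of these 2 peaks overlap and fall on the same peak in each replicate's list, so they count as 1 region between the 2 genes.

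M1BP (chr3R:8729790-8731698, minus strand) encodes the factor that binds the core promoter element Motif 1. Its peak had a signal of 146.6, but the summit was 340 bp upstream of M1BP and 53 bp from the TSS of CG8202. Taking the strongest summit per gene, this was the most distant of the 15. The Motif 1 word GGTCACAC was not found within 100 bases of it.

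The remaining 11 bound genes carry only a CG number, and no function is given here for them. The signal was 501.6 at CG10147, 378.1 at CG4820, 336.8 at CG18476, 295.5 at CG7963 and 192.2 at CG14710. CG14711 had 174.7 and CG10274 had 159.8, while CG6254, CG17328, CG10366 and CG11695 had 142.8, 136.6, 122.3 and 112.7. CG10147 had the highest signal of all bound ZAD genes, the next 3 of these 11 stood below Sry-delta, and CG11695 was the weakest.

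**Figure D1:**
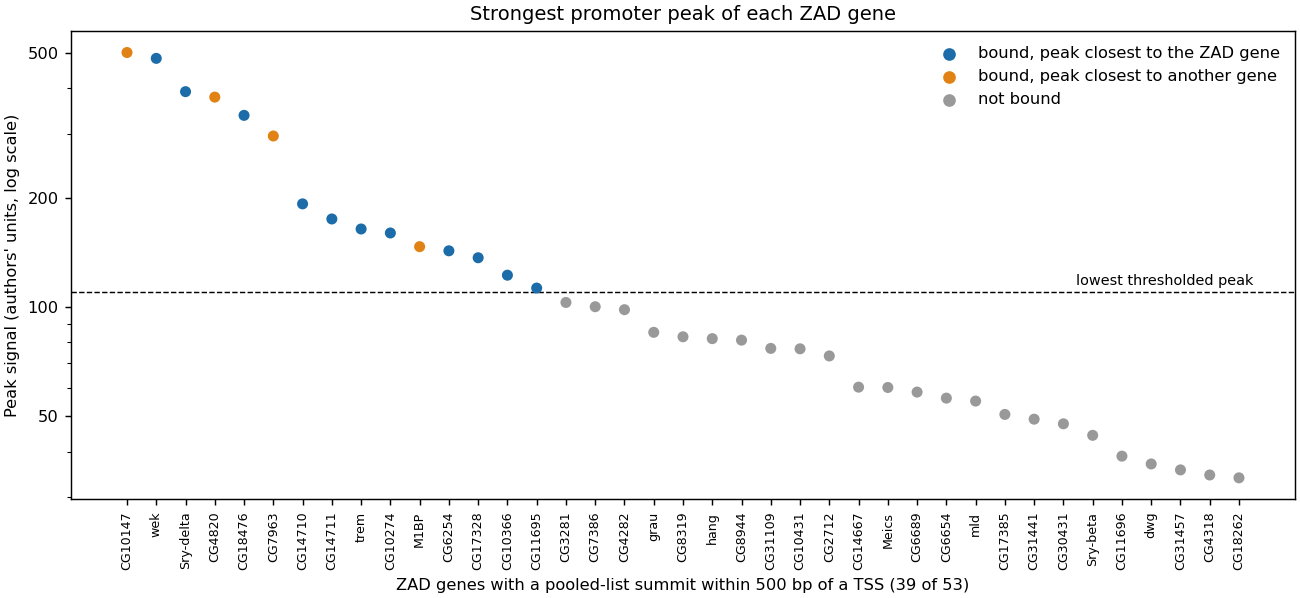
Signal of the strongest pooled-list peak within 500 bp of a TSS for the 39 ZAD genes that had one, on a log scale in the authors' units; the dashed line is the lowest thresholded peak, at 109.8. The 15 bound genes run from 501.6 down to 112.7 (blue where the peak is closest to the ZAD gene, orange where it is closest to another gene) and the 24 unbound genes (grey) from 102.9 down to 33.9.

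Several of the strongest peaks were closer to another gene. The summit's nearest TSS belonged to the ZAD gene for 11 of the 15 (73.3%), beside 71.5% of all bound protein-coding genes. The 4 exceptions were CG10147 (summit 205 bp away, Bulli 52 bp), CG4820 (200 bp, and 48 bp from RpS25, a ribosomal protein gene), CG7963 (219 bp, and 53 bp from Veneno, which encodes a Tudor domain protein of the piRNA pathway) and M1BP. Their median signal was 336.8, and that of the 11 peaks closest to the ZAD gene was 163.9. With the highest peaks of replicate 1 alone 6 of 12 were closest to the ZAD gene, and with those of replicate 2 alone 10 of 16. The same share over all bound protein-coding genes is not given for these lists. At trem and CG14711 the thresholded summit was closest to the gene itself, but the replicates' own summits were not. Those of replicates 1 and 2 lay 450 and 289 bp from trem and 64 and 225 bp from idc. At CG14711 the summit of replicate 2, the only replicate with the peak, lay 178 bp from CG14711 and 64 bp from Zaf1. The 10 of 15 thresholded peaks with another gene's TSS within 500 bp of the summit, the 4 exceptions included, cannot be assigned to the ZAD gene alone.

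Most of the bound summits also lay near a gene on the other strand. For 10 of the 15 (66.7%) another gene had a TSS within 500 bp of the summit, and in all 10 that gene was on the opposite strand. Among all bound protein-coding genes 59.2% had another TSS within that distance and 56.2% had one on the opposite strand. At CG10366 the summit was 121 bp from the ZAD gene and 124 bp from PCNA2, which encodes a replication clamp protein. At CG11695 the distances were 105 bp and 158 bp from e(y)2, a subunit of the SAGA coactivator, at CG14710 they were 72 bp and 112 bp from Jupiter, and at CG17328 they were 54 bp and 139 bp from heix. The 5 genes whose summit had no other TSS within 500 bp were wek, Sry-delta, CG18476, CG10274 and CG6254.

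The share bound was also taken by whether another gene's TSS lay nearby. Of the 25 ZAD genes with another gene's TSS within 500 bp of their own, 9 were bound (36.0%), beside 28.9% of protein-coding genes with such a neighbour. Of the 28 without one, 6 were bound (21.4%), beside 10.5% of protein-coding genes without one. Such a neighbour was present at 47.2% of ZAD genes and 34.4% of all protein-coding genes. Whether such neighbours play a part in the higher share at ZAD genes was not tested. The Wilson intervals, 20.2 to 55.5% and 10.2 to 39.5%, are wide in both classes.

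**Figure D2:**
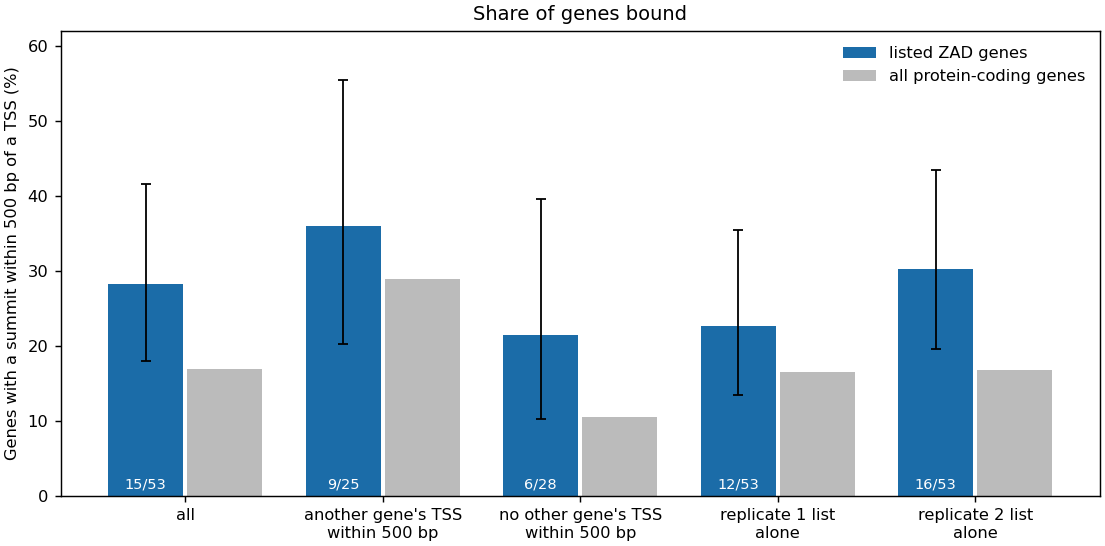
Share of genes with a summit within 500 bp of a TSS, for the listed ZAD genes (blue, with Wilson 95% intervals and counts at the foot of each bar) and for all protein-coding genes in the same class (grey). With the thresholded list the shares are 28.3% and 16.9%; the other pairs split the genes by neighbouring TSS or use the 3535 highest peaks of each replicate alone.

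Summits lay upstream of the gene in 13 of the 15 bound cases. The same share was not taken over all bound protein-coding genes, so this cannot be called particular to ZAD genes. The exceptions were wek, at 1 bp downstream, and CG17328, at 54 bp downstream inside its coding exon. The median distance to the TSS was 121 bp, which was also the median of all bound protein-coding genes. For CG14711 the summit was 95 bp upstream and inside an intron of Zaf1, whose own nearest TSS was 147 bp away. At CG7963 a weaker pooled-list summit lay 20 bp from the TSS, closer than the thresholded one.

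**Figure D3:**
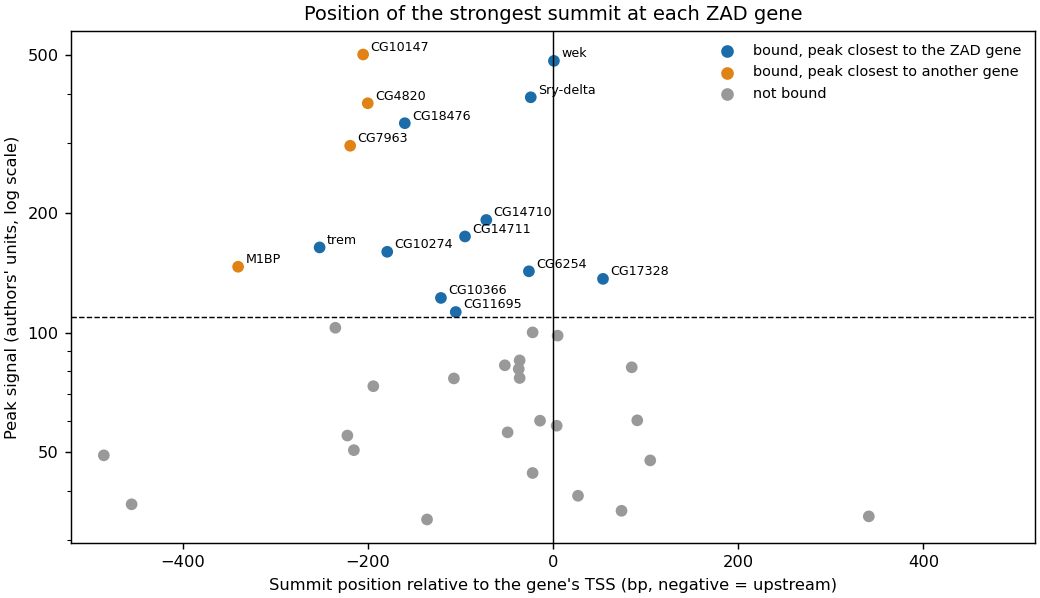
Position of the strongest pooled-list summit relative to the TSS of each ZAD gene (x axis, bp, negative upstream) against its signal (y axis, log scale, authors' units), for the 39 genes with such a peak. The 15 bound genes are named and 13 of them have the summit upstream; the dashed line is the lowest thresholded peak.

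The replicates gave similar ranks for the strongest peaks and unequal ones for some of those in the middle and at the foot of the list. Taking the 3535 highest peaks of replicate 1 alone, 12 ZAD genes had a summit within 500 bp (22.6%), beside 16.5% of protein-coding genes. With replicate 2 alone there were 16 (30.2%), beside 16.8%. Of the 15 bound ZAD genes, 10 were reached by both replicates alone, and 5 by replicate 2 alone, namely CG14711, CG10274, CG17328, CG10366 and CG11695. None was reached by replicate 1 alone.

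CG10147 ranked 478th in replicate 1 and 475th in replicate 2, CG4820 620th and 719th, and CG7963 903rd and 1027th. CG18476 ranked 1187th and 728th, CG14710 1490th and 2105th, and trem 1741st and 1892nd. These 6 genes were within the highest 3535 of each list. M1BP (1938th and 2827th) and CG6254 (1758th and 3229th) were too.

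The ranks parted for 5 bound genes, in the middle of the list as well as at its foot. CG17328 ranked 3666th in replicate 1 and 2758th in replicate 2, CG10366 5702nd and 2498th, and CG11695 16250th and 3081st. The peaks of CG10274 and CG14711, 2179th and 1945th in the thresholded list, stood above those of M1BP and CG6254. The CG10274 and CG14711 peaks overlapped no peak of replicate 1 at all, although they ranked 1446th and 1468th in replicate 2. In the whole thresholded list 3470 of 3535 peaks (98.2%) overlapped peaks of both replicates, so these 2 belong to the few that did not. Counting only peaks in both lists, 13 ZAD genes were bound (24.5%), beside 16.6% of protein-coding genes.

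**Figure D4:**
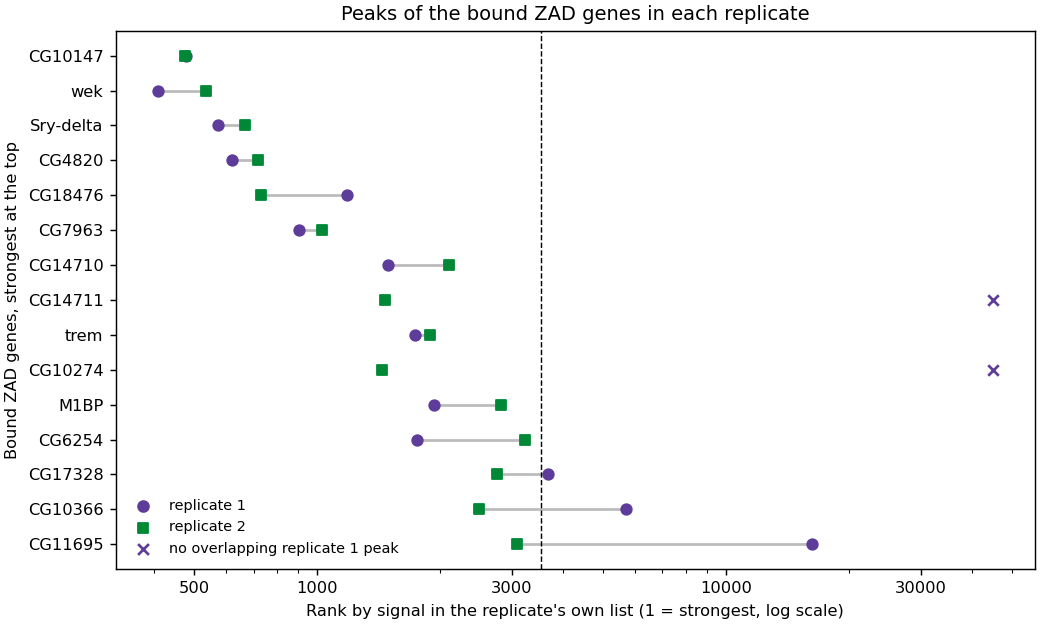
Rank by signal of the peak of each bound ZAD gene in the list of replicate 1 (circles) and replicate 2 (squares), log scale, strongest gene at the top; crosses mark genes whose peak overlapped no replicate 1 peak and have no rank. The dashed line marks rank 3535; 10 of the 15 genes have both ranks left of it, and CG11695 ranks 16250th in replicate 1.

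The unbound ZAD genes were not uniformly without signal. In the pooled list, which by design includes background, 39 of the 53 ZAD genes had a summit within 500 bp (73.6%), beside 47.0% of protein-coding genes. Among the 38 unbound ZAD genes it was 24 (63.2%), beside 36.2% of unbound protein-coding genes. Those 24 peaks had a median signal of 59.2, and those at unbound protein-coding genes had 53.3. Of the 24, 19 were closest to the ZAD gene, 14 overlapped peaks of both replicates, 6 of replicate 2 only, 2 of replicate 1 only and 2 of neither.

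Just inside the threshold stood CG11695 at 112.7 and CG10366 at 122.3. Just outside stood CG3281 at 102.9 (rank 3865, closer to the kinase gene aurA at 84 bp), CG7386 at 100.2 (rank 4004) and CG4282 at 98.3 (rank 4111). The next were grau at 85.2, CG8319 at 82.8, hang at 81.8, CG8944 at 81.0, CG31109 at 76.9, CG10431 at 76.7 and CG2712 at 73.3. The gap between the genes on either side of the line was small beside the range of the bound genes.

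Of the 10 ZAD genes with a name, 4 were bound (40.0%) and 6 were not. Of the 43 with a CG number only, 11 were bound (25.6%). The share of all protein-coding genes was 16.9%. The Wilson intervals, 16.8 to 68.7% with a name and 14.9 to 40.2% with a CG number only, overlap widely. Whether these shares differ was not tested. The unbound named genes all had weak pooled-list peaks. For grau, which activates cortex in female meiosis, the signal was 85.2 and the summit lay 13 bp from CG9346 and 36 bp from grau. For hang, required for ethanol tolerance, it was 81.8, 85 bp downstream in the 5′ UTR, at rank 27589 in replicate 1 and 4342 in replicate 2. Meics, a protein of the meiotic spindle, had 60.0, and mld, needed for ecdysone synthesis, had 55.1. For dwg, which encodes the insulator protein Zw5, it was 37.0 (rank 24589), 455 bp from the TSS within an intron of vilya. The other unbound named gene was Sry-beta, at 44.3.

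A further 8 genes with a CG number only, CG14667, CG6654, CG17385, CG31441, CG30431, CG31457, CG4318 and CG18262, had pooled-list signals between 60.2 and 33.9. The remaining 14 unbound ZAD genes had no pooled-list summit within 500 bp. They were CG1529, CG6813, CG8159, CG9215, CG12219, CG12391, CG14655, CG15073, CG17359, CG17361, CG18764, CG30020, CG31365 and CG31388. In the replicates' own lists 6 of the 14 had a summit within 500 bp: CG6813, CG15073 and CG31365 in replicate 1 only, CG9215 and CG31388 in replicate 2 only, and CG18764 in both. All ranked 10315th or lower, and the other 8 had none. The nearest pooled-list summit was 541 bp away at CG30020 and 8685 bp at CG15073. A list of peaks gives no read coverage, so weak binding cannot be told from none at those 8.

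Adjacent listed ZAD genes differed in state in 6 of 10 groups, and no such share was taken for other neighbouring genes. Joining listed genes within 10 kb of each other gave 10 clusters with 22 of the 53 ZAD genes, or 27 genes with those annotated under another name. Within clusters 7 of 22 were bound, and outside them 8 of 31, beside 16.9% of all protein-coding genes. ZAD genes off the list were not joined, so trem counted as outside although it adjoins idc, which was bound. In 6 clusters bound and unbound genes stood side by side, and in 4 none was bound (CG17361 with CG17359, CG31441 with CG31388, CG31365 with CG31457, and dwg with CG2712). In no cluster were all genes bound.

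In the group of 5 genes on 3R with CG14710 at one end, CG14710 and CG14711 were bound and Zaf1 shared the peak of CG14711, while CG6813 and CG18764 had their nearest pooled-list summits 3394 and 3645 bp away. On 3L, CG10274 was bound at 159.8 and D19B at 219.7, though the D19B peak lay 206 bp from D19B and 63 bp from CG43293. Their neighbours CG7386 and D19A were not bound, with pooled-list signals of 100.2 and 36.3. M1BP was the only bound gene of its group of 4 listed genes, beside CG8159, nom and ouib, of which ouib regulates ecdysone synthesis. The ZAD gene ranshi, not on the list, lies between CG8159 and M1BP and was not bound. CG4820 was bound and CG6689, whose end it adjoins, had a pooled-list signal of 58.3. CG11695 was bound and CG11696 had 38.9.

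**Figure D5:**
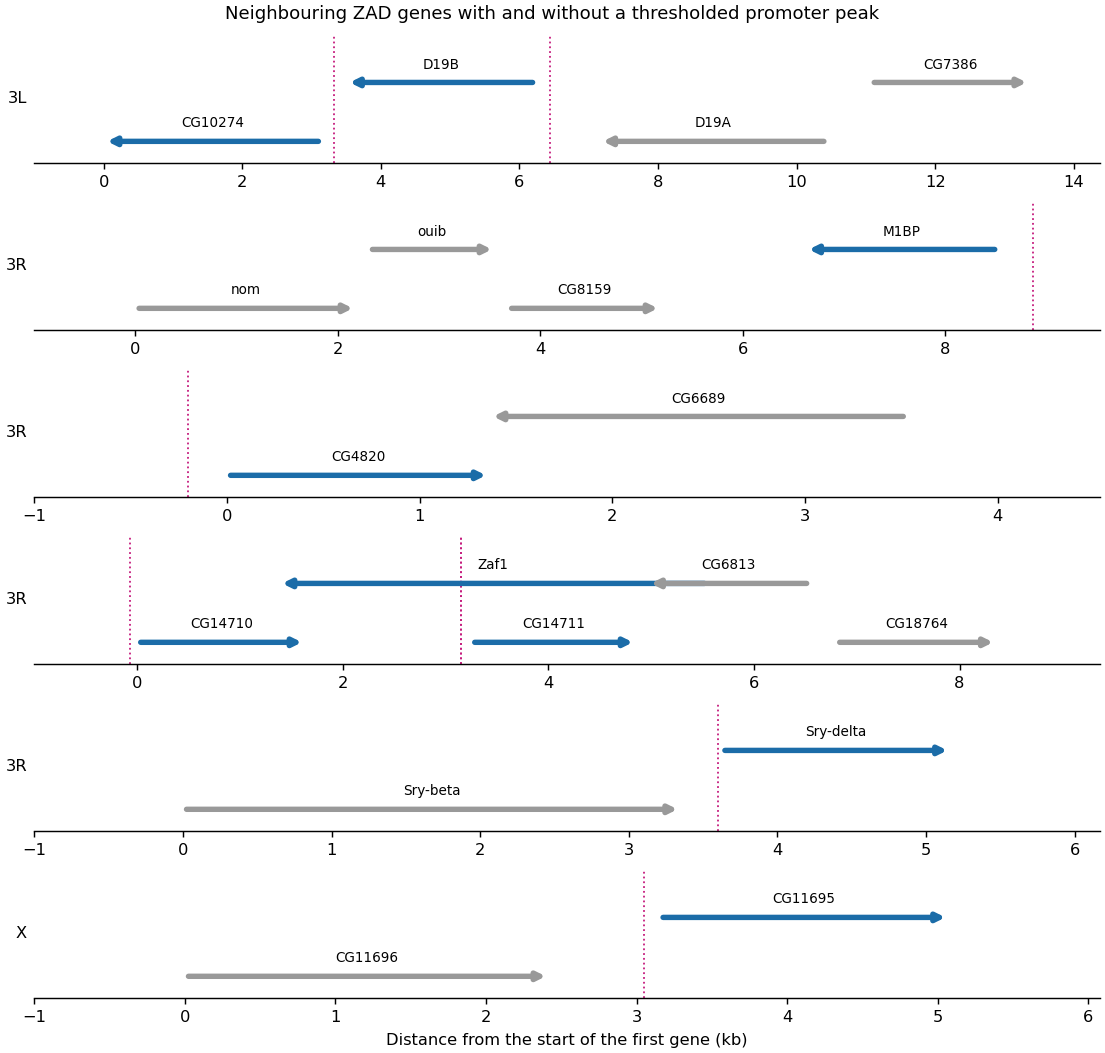
The 6 groups of listed ZAD genes within 10 kb of each other that hold both bound (blue) and unbound (grey) genes. They are drawn to scale in kb from the start of the first gene. Arrows point in the direction of transcription, and other genes, ZAD genes off the list included, are left out. Dotted lines are the strongest thresholded summits within 500 bp of a TSS; each stands beside 1 or 2 of the ZAD genes and none stands at the TSS of the grey ones.

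By chromosome arm the bound ZAD genes were 3 of 4 on 2L, 0 of 7 on 2R, 2 of 6 on 3L, 9 of 25 on 3R and 1 of 11 on X. All protein-coding genes had shares between 15.4% and 17.7% on these arms. The counts per arm are small: the Wilson interval is 30.1 to 95.4% on 2L, 0 to 35.4% on 2R and 1.62 to 37.7% on X. Among the 7 genes of 2R, grau and CG4282 came closest to the threshold.

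The 6 genes annotated under another name included 2 bound ones (Zaf1 and D19B) and 4 unbound ones, of which Paris stood at 103.2 in the pooled list, just outside the threshold. In a further list of 21 ZAD genes not among the 53, 5 were bound (23.8%), beside 16.9% of all protein-coding genes. They were CG1792 at 819.9, closer to Mnat9 (6 bp), CG4707 at 435.5, and idc at 163.9. The others were Zif, a neuroblast polarity regulator, at 147.5, and CG2889 at 134.9, closer to nocte (45 bp). The idc peak at 163.9 is the one counted for trem, 262 bp from idc and 252 bp from trem. The weaker one at 148.8 lay 54 bp from idc. The gene of the tagged protein, Nnk, was not bound: its nearest pooled-list summit was 578 bp away and its nearest thresholded summit 6878 bp.

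Promoter words were counted in the 300 bases from 250 before to 50 after the TSS, on both strands and from the reference sequence. TATCGATA was present in 9 of 53 ZAD promoters (17.0%), beside 9.36% of all 13945 promoters of that length. Motif 1, GGTCACAC, was in 7 (13.2%), beside 7.70%. At least 2 copies of CGATA were in 25 (47.2%), beside 24.3%, and 1 TATCGATA alone supplies them, since it holds CGATA on both strands. CAGCTG was in 15 (28.3%), beside 17.7%, TATAAA in 25 (47.2%), beside 45.8%, and GAGAG in 8 (15.1%), beside 29.7%.

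Whether these words go with binding at ZAD genes was not tested. TATCGATA was in the promoters of 3 of 15 bound and 6 of 38 unbound genes, and GGTCACAC in 2 and 5. The CGATA pair was in 5 and 20, CAGCTG in 4 and 11, TATAAA in 8 and 17, and GAGAG in 2 and 6. Of all protein-coding genes 16.9% were bound. The share bound was 28.6% with TATCGATA in the promoter, 26.4% with GGTCACAC, 24.4% with the CGATA pair, 20.5% with CAGCTG, 17.1% with TATAAA and 15.1% with GAGAG. Within 100 bases of the summit, TATCGATA occurred at 2 of the 15 bound genes (wek and CG4820), the CGATA pair at 3 (also CG14711), CAGCTG at 3 (wek, CG7963 and M1BP) and TATAAA at 9. GGTCACAC and GAGAG occurred at none of the 15. At the summits of all bound protein-coding genes the shares were 11.6% for TATCGATA, 24.8% for the CGATA pair, 14.1% for CAGCTG, 34.5% for TATAAA, 7.19% for GGTCACAC and 17.1% for GAGAG. At 4 of the 15 bound genes none of the words was found, which says only that these letters are not in the window. The windows of the 15 had a median GC content of 33.3% (25.9 to 42.8%), and those of all bound protein-coding genes had 36.3%.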

How the data were processed

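ChIP-seq peak lists of 2 biological replicates (1 group) were analysed. Per the labels and the file descriptions, the authors made 4 lists on dm6: 1 per replicate, 1 from both replicates pooled (30000 peaks each, peaks and background) and an optimal set thresholded for reproducibility (IDR, 3535 peaks), with a control. Not given in the sources used here were the aligner, the caller and the threshold. The signal column was used as deposited by the authors to rank peaks within a list. The other deposited column, the summit offset, gave summits; where it pointed outside the interval (4 peaks of replicate 2 and 1 of replicate 1) the midpoint was used instead. Whether the replicates came from separate collections is not stated beyond their label.

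Genes and TSSs came from Ensembl release 115 and all 53 ZAD genes had the same ends in RefSeq. Coordinates are 1-based. The strongest peak within 500 bp was taken per gene, peaks of different lists were matched by an overlap of at least 1 bp, and ranks are by signal. Proteins were translated from the longest annotated coding sequence; a finger was C, 2 to 4 residues, C, 12 residues, H, 3 to 5 residues, H, and the paired CxxC had a gap of 30 to 65 residues. Intervals are Wilson 95% intervals. No significance test was made. The genes named are all bound members, all with a name, the 10 unbound ones with the highest pooled signal, those with no pooled-list peak, the genes nearest to bound summits and neighbours within 10 kb; the other neighbours of bound summits and the further unbound genes were named after their values were seen. The members and lists were chosen with earlier results of these data known. The counting code was tested on simulated data. Python 3.11.15, pandas 2.3.3, NumPy 2.4.6, SciPy 1.17.1 and matplotlib 3.10.9 were used.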

Additional observations from a re-analysis of the deposited data

How the results depend on the processing

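The count of 15 bound ZAD genes (28.3%, beside 16.9% of protein-coding genes) was 11 with a promoter distance of 200 bp (20.8%, beside 12.3%). It stayed at 15 with 1000 bp (beside 19.2% of protein-coding genes), 1 TSS per gene (beside 15.2%) and RefSeq TSSs (beside 16.9%). The count was also 15 with midpoints in place of summits (beside 16.9%), any part of the interval (beside 17.8%) and each interval counted once (beside 16.8%). It was 7 with the 1767 strongest thresholded peaks (13.2%, beside 9.67%) and 2 with the 500 highest (3.77%, beside 3.27%), where the ZAD share was close to that of all genes, and the count with the peak closest to the ZAD gene, 11, was 4 and 1 there, by construction of the smaller lists. Leaving out a replicate gave 12 to 16 bound genes, and 6 to 10 with the peak closest to the gene (6 without replicate 2, 10 without replicate 1). The number with a pooled-list peak was 37 without replicate 1 (beside 47.3% of protein-coding genes) and 34 without replicate 2 (beside 45.2%). Over the 11 settings 1 gene, wek, was always bound, 5 others were lost under the stricter thresholds alone, and 35 of the 38 unbound genes were bound in none; CG10431 was bound without replicate 1, and CG3281 and CG4282 without replicate 2. With genes under another name added, an alternative chosen after seeing the data, 17 were bound, beside 16.9% of protein-coding genes. With peaks in both lists, also chosen after, 13 were (24.5%), beside 16.6%. The median signal was taken for few settings and was 174.7 with 200 bp, with 1000 bp and with genes under another name added. It was the same without chromosome 4 and the centromere-proximal segments, where it could not change because no ZAD gene lay there. It was not taken for the smaller lists or for single replicates. No paired analysis was possible because there was 1 group. Depth is unknown, so its limit on weak peaks could not be given.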
